A study of Mus musculus with 12 samples.

Results

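The muscle miRNAs mmu-miR-206-3p, mmu-miR-1a-3p and mmu-miR-133a-3p and the miR-378 family entries mmu-miR-378a-3p, mmu-miR-378c and mmu-miR-378d were examined in extracellular vesicles, the membrane particles that cells release with RNA inside. The 6 entries were taken by name from the 1978 rows with a mouse miRNA name, of which 501 had a count in some library. All 6 had a count, and 3 of them (mmu-miR-206-3p, mmu-miR-378a-3p and mmu-miR-378c) were abundant enough to be among the 132 miRNAs tested. The vesicles came from mesenchymal stem cells grown from the bone marrow of C57BL/6 mice kept free of specified pathogens, which are stromal precursors of bone, cartilage and fat cells. The design text names 3 hydatid antigen preparations, ESPs, HCF and pLL, given for 48 h at 2 µg/ml, and hydatid antigens derive from a tapeworm larva. The groups were PLL, NY, aFM and DZ, with 3 libraries each marked A, B and C. Every library, DZ included, is labelled as having had the antigen intervention. PLL carries the name of one preparation, the labels do not say what NY, aFM and DZ stand for, and no label calls DZ an untreated control, so DZ serves only as a common point of comparison. Whether the replicates are separate cultures or animals is not stated, so p-values reflect the spread of these 12 libraries alone, and that spread may be technical.

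miR-1, miR-133 and miR-206 are made in skeletal muscle, and miR-1 and miR-133 in heart muscle too. miR-1 and miR-206 share a seed, the bases that pair with target messages, and push muscle precursors to differentiate, while miR-133 is known for keeping them dividing. miR-206 is restricted to skeletal muscle more than the other members are, and is induced as muscle fibres form and regenerate. miR-378a lies in an intron of Ppargc1b, which codes for a coactivator of mitochondrial genes, and is known for its part in fat and energy metabolism, with high levels in muscle and brown fat. Mouse mmu-miR-378b, mmu-miR-378c and mmu-miR-378d are further loci whose mature sequences resemble it.

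The sequences below are printed because the counts of near-identical entries depend on how few bases set them apart. They are RefSeq's, and 3 of the 6 members and all 3 of the other detected entries of the 2 families, mmu-miR-133b-3p, mmu-miR-499-5p and mmu-miR-378b, had one in the table used. Capitals mark the seed, bases 2 to 8 from the 5′ end.
mmu-miR-206-3p: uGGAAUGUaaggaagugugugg
mmu-miR-133b-3p: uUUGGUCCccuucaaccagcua
mmu-miR-499-5p: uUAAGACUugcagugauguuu
mmu-miR-378c: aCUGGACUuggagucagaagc
mmu-miR-378d: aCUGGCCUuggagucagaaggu
mmu-miR-378b: cUGGACUUggagucagaaga

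Counted from 1 at the 5′ end of mmu-miR-378c, mmu-miR-378d differed from it by A6C and C21G over the 21 bases they share. The first of these lies in the seed, so the 2 entries have different seeds. mmu-miR-378b begins 1 base later than mmu-miR-378c and differed from it by C21A over 20 bases. Its seed is therefore the same stretch shifted by 1 base. The files do not say how a read that fits several of these entries was counted, so the split of reads among the miR-378 entries, and between miR-133a and miR-133b, is uncertain. No member had the same counts as another row in all 12 libraries.

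In RefSeq's coordinates on GRCm38.p6, an earlier build than the mm39 named in the submitters' processing notes, mmu-miR-206-3p lies at chr1:20679055-20679076 on the plus strand and mmu-miR-133b-3p at chr1:20682834-20682855 on the same strand. Their hairpins are 3686 bases apart and both overlap exons of the long noncoding RNA gene Gm28653, transcribed in the same direction, in the GENCODE annotation of that build, from which all host genes are taken. The hairpin of miR-206 is shown with the mature miRNA in capitals, since both its arms were looked for and the 5′ arm, mmu-miR-206-5p, had 0 counts in all 12 libraries.
Mir206 hairpin (chr1:20679010-20679082): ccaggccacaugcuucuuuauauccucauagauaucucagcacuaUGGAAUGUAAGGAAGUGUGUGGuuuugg

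mmu-miR-499-5p, at chr2:155622893-155622913 on the plus strand, lies in an intron of Myh7b, a gene for a myosin heavy chain, in the same direction. mmu-miR-378c, at chr14:46954905-46954925 on the minus strand, lies in an intron of Samd4 and opposite to it. mmu-miR-378b, at chr11:88352839-88352858 on the plus strand, lies in an intron of Msi2 and opposite to it. mmu-miR-378d, at chr10:126710355-126710376 on the minus strand, overlapped no host gene in the annotation.

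Libraries held 68647 to 214303 counts, of which 17607 to 60436 fell on annotated miRNAs, with the rest on predicted loci. Annotated miRNAs took 43.9% ± 15.9 of counts in PLL, 23.7% ± 6.23 in NY, 15.4% ± 4.61 in aFM and 17.5% ± 6.23 in DZ (SD, n = 3 each). Levels are given as CPM, counts scaled to a common total of annotated counts, with edgeR's trimmed mean (TMM) factors applied to the library sizes. Where a library had a count of 0, the upper limit was set at 3 counts, which came to 67.9 to 183 CPM. Such limits, and the intervals given here, hold counting error and nothing else, because reads that carry no molecular identifier need not come from different molecules. All 8 mesenchymal and smooth muscle markers were counted, summing to 143714 to 235141 CPM in PLL, 205757 to 224457 in NY, 149850 to 160628 in aFM and 189252 to 215937 in DZ. Of 7 skeletal and cardiac muscle markers 5 had a count, and mmu-miR-208a-3p and mmu-miR-208b-3p, which lie in heart myosin genes, had 0 in every library. The stromal markers were thus far above the muscle entries, which summed to at most 2638 CPM in a library. In bulk libraries, fewer vesicles of a kind and less of a miRNA in each vesicle cannot be told apart.

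By mean CPM over the 12 libraries, mmu-miR-378a-3p ranked 76th and mmu-miR-206-3p 94th of the annotated rows, mmu-miR-378c 128th, mmu-miR-1a-3p 141st, mmu-miR-378d 195th and mmu-miR-133a-3p 282nd. Their total counts were 339, 198, 95, 80, 31 and 11 in that order. The most abundant of them held on average 0.0969% of a library's annotated counts. mmu-miR-378a-3p was counted in all 12 libraries, mmu-miR-206-3p, mmu-miR-378c and mmu-miR-378d in 11 each, mmu-miR-1a-3p in 10 and mmu-miR-133a-3p in 3.

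mmu-miR-206-3p, the skeletal muscle miRNA that promotes myoblast differentiation, was high in all NY libraries. It had 204, 100.5 and 191 CPM in PLL, 1227, 1831 and 1430.0 CPM in NY, 127, 184 and 423 CPM in aFM and 0, 56.9 and 644 CPM in DZ for replicates A, B and C. The lowest NY library stood above every library of the other 3 groups. The NY levels rest on 37, 59 and 43 counts, and 17 of the 18 counts in DZ came from replicate C. Group means were 165 ± 56.3 CPM in PLL, 1496 ± 308 CPM in NY, 244 ± 157 CPM in aFM and 234 ± 357 CPM in DZ (SD, n = 3 each), and the means of PLL, DZ and aFM, the 3 lower ones, lay within the spread of DZ. The low-count filter asked for about 352 unscaled CPM in 3 libraries. This entry was above that level in 5, namely no PLL library, all 3 NY libraries, 1 aFM library and 1 DZ library, so it would not have been tested without NY.

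The joint test of any difference among the 4 groups called mmu-miR-206-3p (edgeR adjusted p = 0.0340), where 12.1% of the 132 miRNAs were called. Without aFM replicate A or B, or any 1 NY library, that p was 0.0628 to 0.114. It was lower in PLL than in NY, with a log2 fold change of -3.15 ± 0.81 (SE; edgeR adjusted p = 0.0356). Since NY, where it is high, brought it into the tested set, these calls are not independent of that choice. With no filter on low counts PLL against NY gave -3.18 (edgeR adjusted p = 0.000211). P-values of that unfiltered fit treat the spread between libraries as known, unlike those of the main fit, so the smaller p is not stronger support. Against NY, PLL had 3.79% of all tested miRNAs called lower and 6.82% called in either direction. The call was lost when any 1 of the 6 libraries of PLL and NY was left out, with adjusted p between 0.0552 and 0.121 and the log2 fold change between -3.38 and -3.00. It was lost too in a fit with the predicted loci included (-1.89, edgeR adjusted p = 0.238). NY against aFM gave 2.55 ± 0.79 (edgeR adjusted p = 0.0768), and it passed without DZ replicate A (0.0419) or DZ replicate C (0.0152), neither of which belongs to those groups. NY against DZ gave 2.49 ± 0.81 (edgeR adjusted p = 0.246). Without DZ replicate C that difference was 5.43, with an edgeR adjusted p of 0.00452. The 3 neural markers summed to 88042 to 126436 CPM in PLL and 9713 to 11074 CPM in NY, and both endothelial markers to 1698 to 2323 CPM in PLL and 365 to 865 CPM in NY. Most of the neural sum was mmu-miR-9-5p, at a mean of 107716 CPM in PLL and 7503 CPM in NY. mmu-miR-128-3p went the other way (2438 and 2830 CPM), and mmu-miR-124-3p had 10 counts in PLL and 2 in NY. The part of these markers in the mmu-miR-206-3p difference was not tested.

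PLL against DZ and aFM against DZ showed no direction for mmu-miR-206-3p that held. The log2 fold change was -0.66 ± 0.88 in PLL against DZ (edgeR adjusted p = 0.593) and -0.06 ± 0.86 in aFM against DZ (0.990). Without DZ replicate C both turned positive, to 2.20 and 2.97, with edgeR adjusted p of 0.242 and 0.0848. PLL against aFM gave -0.60 ± 0.86 (edgeR adjusted p = 0.641). mmu-miR-122-5p, a miRNA of hepatocytes, was at 3943 to 7827 CPM in PLL, 2421 to 3060 CPM in NY and 13507 to 15699 CPM in aFM. Within DZ it was at 38119 CPM in replicate C, against 1890 and 4324 CPM in replicates A and B. The part of this marker in the mmu-miR-206-3p values was not tested.

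**Figure D1:**
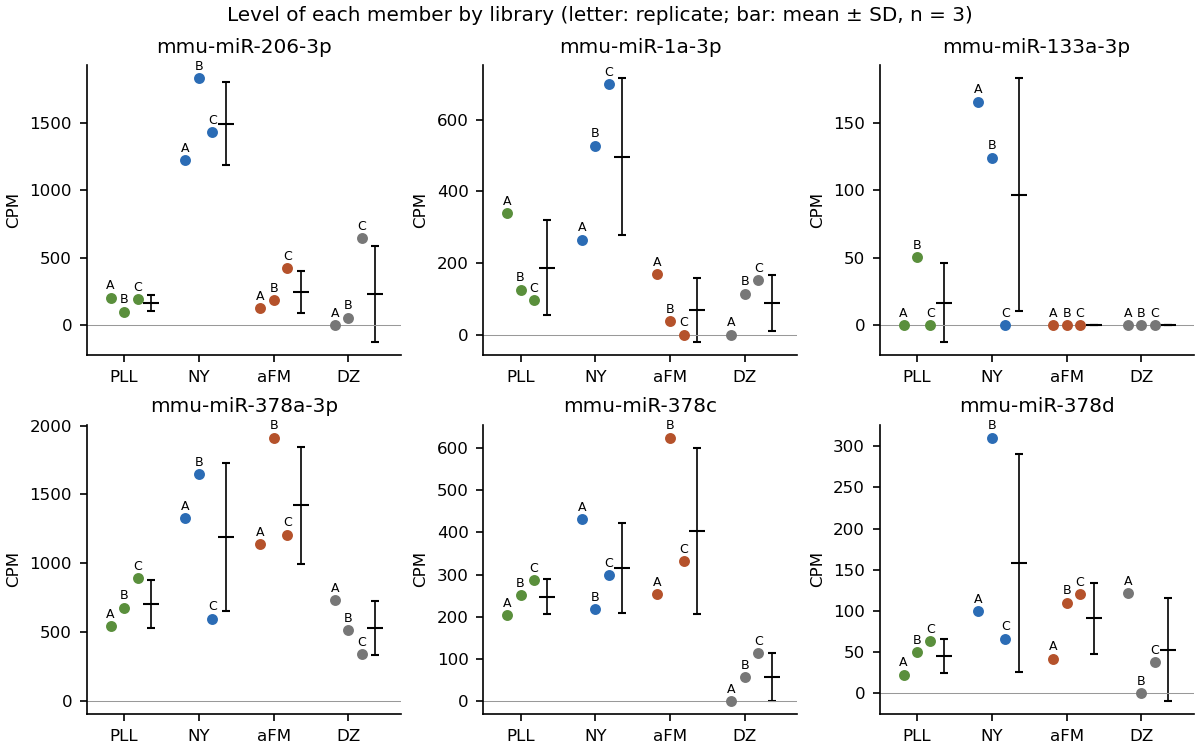
Level of each of the 6 members in CPM (linear axis, 1 panel each) in the PLL, NY, aFM and DZ libraries. Points are libraries with their replicate letter and bars are the mean ± SD of 3 libraries. mmu-miR-206-3p sits at 1227 CPM or more in every NY library and at 644 CPM or less in the others, while mmu-miR-378c is at 204 CPM or more in every PLL, NY and aFM library and at 114 CPM or less in every DZ library.

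mmu-miR-1a-3p, which carries out much of the same differentiation programme in skeletal and heart muscle, had its highest mean in NY. Levels for replicates A, B and C were 339.7, 126 and 95.4 CPM in PLL, 265, 528 and 698 CPM in NY, 169, 36.8 and 0 CPM in aFM and 0, 114 and 152 CPM in DZ. NY stood above all aFM and DZ libraries but overlapped PLL through PLL replicate A. Means were 187 ± 133 CPM in PLL, 497 ± 218 CPM in NY, 68.5 ± 88.7 CPM in aFM and 88.5 ± 78.9 CPM in DZ (SD, n = 3 each).

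mmu-miR-1a-3p was above the filter level in only 2 libraries, both NY, and was therefore not tested. Its 46 pooled NY counts against 6 in DZ gave a ratio of scaled counts of 5.01 (95% counting interval 2.13 to 14.3), and against 5 in aFM a ratio of 8.36 (3.33 to 27.0). The 23 pooled PLL counts against 46 in NY gave 0.401 (0.232 to 0.675). The ratio was 2.01 (0.794 to 6.02) in PLL against DZ, 3.35 (1.25 to 11.3) in PLL against aFM and 0.599 (0.145 to 2.36) in aFM against DZ. Such intervals leave out the spread between libraries. With no filter on low counts, NY against DZ gave a log2 fold change of 2.28 ± 1.01 (edgeR adjusted p = 0.532) and NY against aFM 2.84 ± 1.02 (0.136), neither past the threshold. In the fit with the predicted loci included it was tested, and it passed in NY against aFM (3.62, edgeR adjusted p = 0.0328) and in PLL against aFM (3.64, 0.0276).

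mmu-miR-133a-3p, which is made from the same primary transcripts as miR-1, was near the detection limit. It had 2 counts in PLL replicate B (50.2 CPM) and 0 in PLL replicates A and C, against 5, 4 and 0 counts in NY replicates A, B and C, or 166, 124 and 0 CPM. All aFM and DZ libraries had 0. Set against the limit of 3 counts over the group, the 9 pooled NY counts came to 1.96-fold DZ and 2.73-fold aFM. With counting error in both groups, the lower end of the 95% counting interval was 1.29 against DZ and 1.79 against aFM. The 2 PLL counts against the 9 in NY gave a ratio of 0.178 (95% counting interval 0.0187 to 0.860). No ratio is given for the other 3 comparisons, which set 2 PLL counts against 0 in aFM or DZ, or 0 in aFM against 0 in DZ.

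Of 15 other muscle rows, the second arms and relatives of miR-1, miR-133, miR-206, miR-208 and miR-499, only mmu-miR-133b-3p and mmu-miR-499-5p had a count, and neither was tested. mmu-miR-499-5p, a miRNA of slow-twitch and heart muscle, had 0 counts in all PLL libraries, 3, 5 and 3 in NY replicates A, B and C (99.4, 155 and 99.8 CPM), 1 in aFM replicate C and 0 in all DZ libraries. With the limit of 3 counts over the group, NY came to 2.39-fold DZ, and PLL was 4.58-fold lower than NY. With counting error in both groups, the 95% counting interval of NY over DZ began at 1.64. That of PLL over NY ended at 0.319. Against the 1 aFM count the ratio of NY was 9.99 (95% counting interval 1.45 to 430.2). mmu-miR-133b-3p, the neighbour of miR-206, had 1 count in PLL replicate B and 4 in NY replicate A. All 5 muscle entries with a count thus had their highest pooled level in NY, but only mmu-miR-206-3p was tested.

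Summed, these 5 entries came to 543, 301 and 286 CPM in PLL, 1889, 2638 and 2228 CPM in NY, 295, 221 and 453 CPM in aFM and 0, 171 and 796 CPM in DZ for replicates A, B and C. The NY libraries stood apart from the rest, and DZ replicate C came next. The means were 377 ± 144 CPM in PLL, 2252 ± 375 CPM in NY, 323 ± 119 CPM in aFM and 322 ± 419 CPM in DZ (SD, n = 3 each). mmu-miR-206-3p made up 64.7% of the 306 pooled muscle counts, mmu-miR-1a-3p 26.1%, mmu-miR-499-5p 3.92%, mmu-miR-133a-3p 3.59% and mmu-miR-133b-3p 1.63%.

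In PLL, mmu-miR-1a-3p was 51.1% of the 45 pooled muscle counts (exact 95% binomial interval 35.8% to 66.3%). In NY it was 22.0% of 209 counts (16.6% to 28.2%). mmu-miR-206-3p was 42.2% in PLL (27.7% to 57.8%) and 66.5% in NY (59.7% to 72.9%). In PLL, 15 of the 23 mmu-miR-1a-3p counts came from replicate A, so the share rests largely on that library. By library, mmu-miR-206-3p was 37.5%, 33.3% and 66.7% of the muscle counts in PLL replicates A, B and C and 64.9%, 69.4% and 64.2% in those of NY, so the groups overlapped. These intervals cover counting only, and no test over libraries was made.

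**Figure D2:**
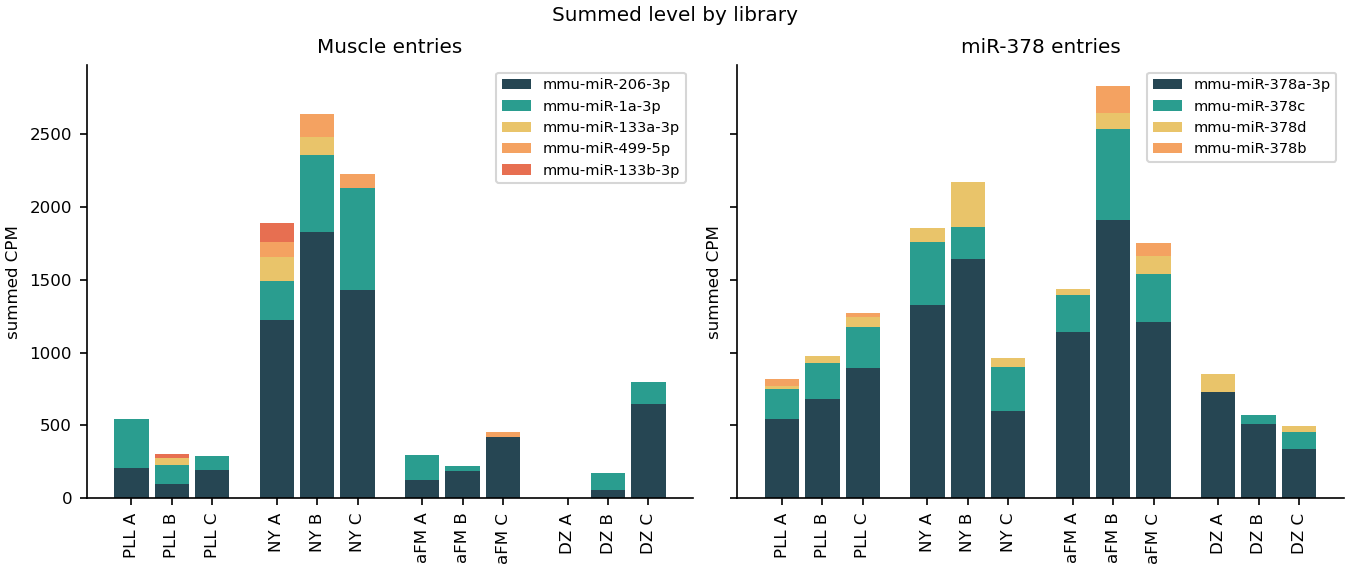
Summed CPM (linear axis from 0) of the 5 muscle entries with a count, left, and of the 4 miR-378 entries, right, with 1 bar per library and 1 colour per entry. The NY bars of the muscle entries reach 1889 to 2638 CPM against at most 796 CPM elsewhere, and DZ replicate A has none, whereas the miR-378 bars are present in all 12 libraries.

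mmu-miR-378a-3p, the intronic miRNA of Ppargc1b known for its role in energy metabolism, was the most abundant member and higher in aFM than in DZ. It had 543, 678 and 891 CPM in PLL, 1326, 1645 and 599 CPM in NY, 1139, 1912 and 1209 CPM in aFM and 732, 512 and 341 CPM in DZ for replicates A, B and C. The aFM libraries lay above all DZ and all PLL libraries, while NY spanned the range because its replicate C was low. Means were 704 ± 175 CPM in PLL, 1189.8 ± 536 CPM in NY, 1419.7 ± 428 CPM in aFM and 528 ± 196 CPM in DZ (SD, n = 3 each). The other arm, mmu-miR-378a-5p, had 2 counts in DZ replicate B and 0 elsewhere.

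mmu-miR-378c, whose mature sequence is printed above, was low in DZ. It had 204, 251 and 286 CPM in PLL, 431, 217 and 299 CPM in NY, 253, 625 and 332 CPM in aFM and 0, 56.9 and 114 CPM in DZ for replicates A, B and C. All 9 libraries of PLL, NY and aFM stood above all 3 of DZ. Means were 247 ± 41.4 CPM in PLL, 316 ± 108 CPM in NY, 403 ± 196 CPM in aFM and 56.9 ± 56.8 CPM in DZ (SD, n = 3 each). The DZ values rest on 0, 1 and 3 counts, and the 2 shallowest libraries by annotated counts were DZ replicates B and A. How often tested miRNAs separate groups of 3 libraries without overlap was not counted, here or for the other members. Between aFM and DZ, mmu-miR-128-3p and mmu-miR-26a-5p did not overlap either, while mmu-miR-24-3p and mmu-miR-221-3p did.

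Both entries were called higher in aFM than in DZ, the only comparison with DZ in which a member passed. mmu-miR-378c had a log2 fold change of 2.58 ± 0.73 (edgeR adjusted p = 0.0415), and its 34 pooled aFM counts against 4 in DZ gave a ratio of 6.11 (95% counting interval 2.18 to 23.7). mmu-miR-378a-3p had a log2 fold change of 1.45 ± 0.46 (edgeR adjusted p = 0.0471). Of all 132 tested miRNAs 9.09% were called higher in aFM and 18.9% were called in either direction, and their median log2 fold change was -0.14. The calls were near the threshold. The mmu-miR-378c call was kept only when the library left out was PLL replicate A, with adjusted p of 0.0513 to 0.167 without any other. Its log2 fold change was 2.05 to 3.63 with a library left out, the highest without DZ replicate C. The mmu-miR-378a-3p call was kept only without NY replicate C or PLL replicate A, with 0.0598 to 0.188 without any other. mmu-miR-378c, above the filter level in 2 aFM libraries, 1 NY library and none of PLL or DZ, was brought into the tested set by groups in which it is high. Neither was called with upper quartile factors, with library totals, with no filter on low counts or with the predicted loci included, and both kept their direction there.

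Summed levels of 3 marker lists of other cell types did not overlap between aFM and DZ, while those of the erythroid, liver and epithelial lists did. The mesenchymal and smooth muscle markers did not overlap either, at 149850 to 160628 CPM in aFM and 189252 to 215937 CPM in DZ. Both endothelial markers, the arms of miR-126a, summed to 4623 to 5147 CPM in aFM and 493 to 1423 CPM in DZ, and the 3 neural markers, led by mmu-miR-9-5p, to 33240 to 39092 CPM in aFM and 2236 to 3231 CPM in DZ. Within the neural list mmu-miR-124-3p, the most neuron-specific of the 3, averaged 150 ± 81.7 CPM in aFM (SD, n = 3) and was at 0 in all DZ libraries, while mmu-miR-128-3p averaged 3563 ± 791 CPM in aFM and 2274 ± 496 CPM in DZ (SD, n = 3 each; edgeR adjusted p = 0.109). The 5 leukocyte markers summed to 1843 to 2647 CPM in aFM and 3259 to 3719 CPM in DZ. Most of that sum was mmu-miR-142a-5p, at 1719 ± 234 CPM in aFM and 3239 ± 275 CPM in DZ (SD, n = 3 each). On few counts, mmu-miR-223-3p had a lower mean in aFM too. The means of mmu-miR-142a-3p (80.7 against 0 CPM), mmu-miR-155-5p (164 against 37.9) and mmu-miR-150-5p (141 against 64.6) were higher in aFM than in DZ. The part of these levels in the miR-378 differences was not tested.

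In the other comparisons no miR-378 entry passed the threshold. Against DZ, NY gave log2 fold changes of 2.23 ± 0.74 for mmu-miR-378c and 1.19 ± 0.46 for mmu-miR-378a-3p, each with an edgeR adjusted p of 0.246. With a library left out the mmu-miR-378c value was 1.72 to 3.20 in NY against DZ and 1.31 to 2.79 in PLL against DZ, the highest of each without DZ replicate C. PLL against DZ gave 1.87 ± 0.75 for mmu-miR-378c (edgeR adjusted p = 0.134) and 0.43 ± 0.46 for mmu-miR-378a-3p (0.547). These 3 comparisons share the DZ libraries, so the direction of mmu-miR-378c in them is not 3 separate observations. PLL against aFM gave -1.01 ± 0.43 for mmu-miR-378a-3p (edgeR adjusted p = 0.138), with no overlap of libraries, and -0.71 ± 0.56 for mmu-miR-378c (0.390). With the predicted loci included, the median log2 fold change of the 132 miRNAs in PLL against aFM was 2.13 in place of 0.31, and these entries turned positive (0.79 and 1.05).

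PLL against NY gave -0.76 ± 0.43 for mmu-miR-378a-3p (edgeR adjusted p = 0.310) and -0.35 ± 0.57 for mmu-miR-378c (0.679). NY against aFM gave -0.25 ± 0.42 and -0.36 ± 0.56 for the same entries (edgeR adjusted p = 0.801 and 0.800). The joint test left both above the threshold, with an edgeR adjusted p of 0.0915 each. For both entries the group means ran, from low to high, DZ, PLL, NY and aFM, and no neighbours in that order differed past the threshold.

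mmu-miR-378d, set apart from mmu-miR-378c by a base in the seed, was sparse and was not tested. It had 22.6, 50.2 and 63.6 CPM in PLL, 99.4, 310.3 and 66.5 CPM in NY, 42.2, 110.3 and 121 CPM in aFM and 122, 0 and 37.9 CPM in DZ for replicates A, B and C. The groups overlapped in CPM except that every NY library was above every PLL library. The counts were 1, 2 and 2 in PLL and 3, 10 and 2 in NY for replicates A, B and C. NY replicate C and PLL replicates B and C thus had 2 counts each, and only the scaling sets them apart. The 15 pooled NY counts, 10 of them in replicate B, against 3 in DZ gave a ratio of 3.26 (95% counting interval 0.923 to 17.6), and the 5 PLL counts against 15 in NY gave 0.267 (0.0759 to 0.773). aFM against DZ gave 1.92 (0.460 to 11.2) from 8 and 3 counts, PLL against DZ 0.872 (0.170 to 5.61), NY against aFM 1.70 (0.678 to 4.64) and PLL against aFM 0.455 (0.117 to 1.58). mmu-miR-378b had 3 counts in PLL, 0 in all NY libraries, 8 in aFM and 0 in all DZ libraries. With the limit of 3 counts over the group, its aFM level came to 1.92-fold DZ, and NY was 2.94-fold lower than aFM. With counting error in both groups, the 95% counting interval of aFM over DZ began at 1.23. That of NY over aFM ended at 0.532.

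Together the 4 miR-378 entries averaged 1022 ± 232 CPM in PLL, 1664 ± 626 CPM in NY, 2006 ± 732 CPM in aFM and 638 ± 190 CPM in DZ (SD, n = 3 each). Counted as 1 entry in an alternative fit, they were higher in aFM than in DZ with a log2 fold change of 1.67 ± 0.42 (edgeR adjusted p = 0.0274). Over all miRNAs that fit called 11 higher and 11 lower in aFM. The sum avoids the uncertain split of reads only if no read was counted for several entries. Such counting was not tested, but mmu-miR-486a-5p and mmu-miR-486b-5p had the same log2 fold change (-1.07) in aFM against DZ. The sum was not refitted with a library left out, and the calls of mmu-miR-378a-3p and mmu-miR-378c alone were lost in most such fits. mmu-miR-378a-3p held 71.2% of the 476 pooled counts of the 4 entries (exact 95% binomial interval 66.9% to 75.2%), mmu-miR-378c 20.0%, mmu-miR-378d 6.51% and mmu-miR-378b 2.31%. The mmu-miR-378c share was 24.3% in PLL (16.8% to 33.2%), 18.7% in NY (12.9% to 25.8%), 20.1% in aFM (14.4% to 27.0%) and 10.8% of 37 counts in DZ (3.03% to 25.4%). These intervals overlap. The mmu-miR-378b share was 0% of 155 counts in NY (0% to 2.35%) and 4.73% of 169 counts in aFM (2.07% to 9.11%). The intervals cover counting only, and no test over libraries was made of the shares.

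**Figure D3:**
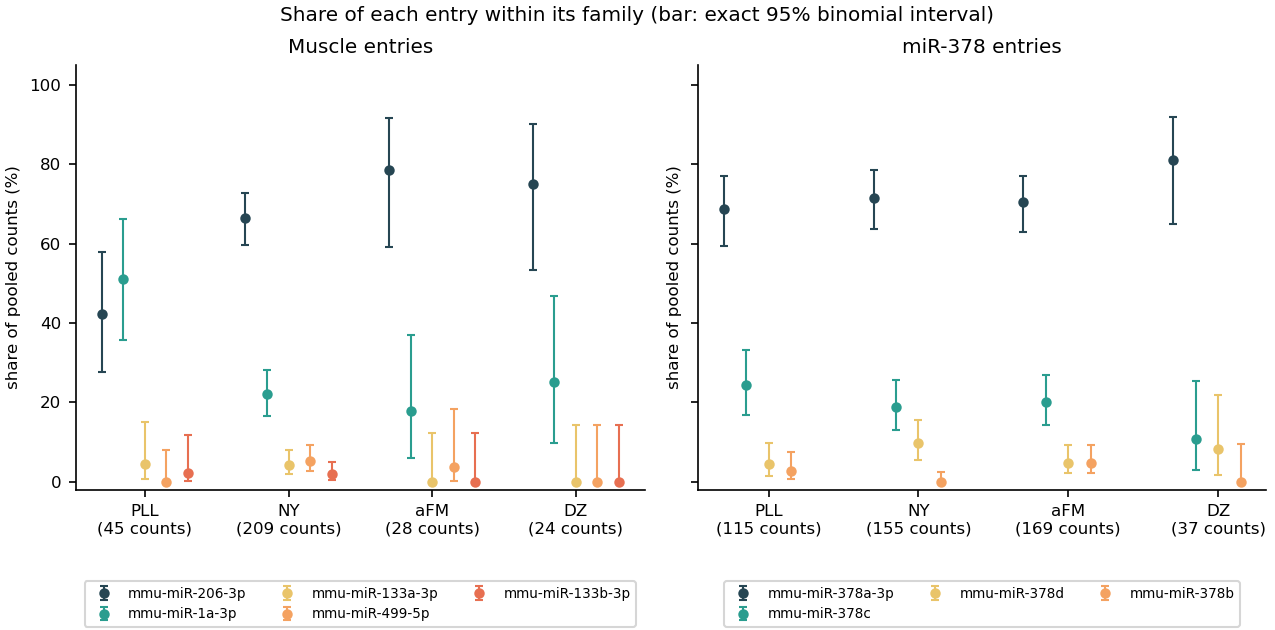
Share in percent of the pooled counts of its family held by each entry in PLL, NY, aFM and DZ, with exact 95% binomial intervals as bars and the pooled count under each group. The muscle entries are led by mmu-miR-206-3p in NY (66.5%), aFM and DZ, whereas in PLL mmu-miR-1a-3p is at 51.1%, and mmu-miR-378a-3p leads the miR-378 entries in all 4 groups.

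Over the 6 comparisons, 2 of the 3 tested members were called in aFM against DZ, beside 18.9% of all miRNAs, and 1 in PLL against NY, beside 6.82%. These counts support nothing about the members as a set, since mmu-miR-206-3p and mmu-miR-378c passed the filter through groups in which they are high. No member was called in the other 4 comparisons. There edgeR called 0.758% of the miRNAs in NY against DZ, 3.79% in PLL against DZ, 3.79% in NY against aFM and 9.09% in PLL against aFM. At an unadjusted p under 0.05, 3 members passed in NY against DZ and 1 in each of the other 3. DESeq2 called 1 member in NY against DZ and 1 in NY against aFM, mmu-miR-206-3p in both, and 0 in PLL against DZ and PLL against aFM. Over all tested miRNAs DESeq2 called 2 higher and 4 lower in NY against DZ, and 4 higher and 11 lower in NY against aFM. There were 8 higher and 12 lower in PLL against DZ, and 10 higher and 15 lower in PLL against aFM.

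**Figure D4:**
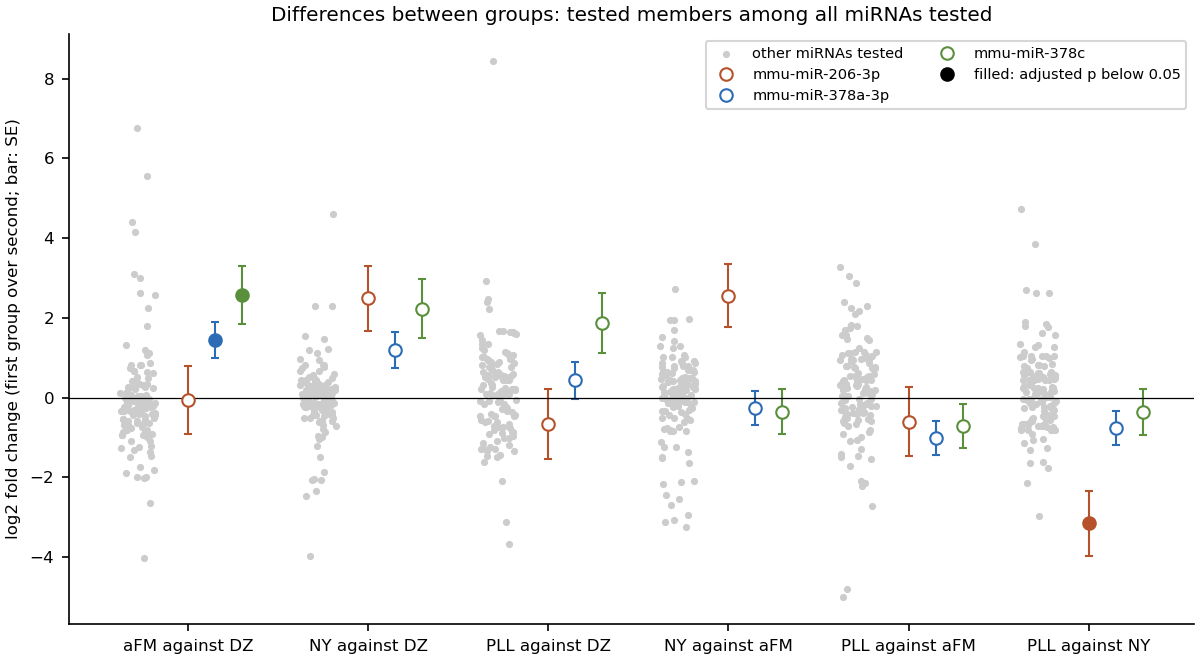
Log2 fold change (first group over second) of the 3 tested members in the 6 comparisons, with SE bars, beside the other tested miRNAs as grey points. Filled symbols have an edgeR adjusted p below 0.05: mmu-miR-378c at 2.58 and mmu-miR-378a-3p at 1.45 in aFM against DZ, and mmu-miR-206-3p at -3.15 in PLL against NY.

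miRNAs that act on the muscle programme without being made mainly in muscle were read from 2 lists. Of 9 miRNAs known to promote myogenesis all had a count and 6 were tested. mmu-miR-486a-5p, which is abundant in muscle and in red cells, was the 1 that passed, and it did so in 1 comparison. It averaged 36598 ± 1695 CPM in aFM and 77065 ± 30806 CPM in DZ (SD, n = 3 each), with a log2 fold change of -1.07 ± 0.33 (edgeR adjusted p = 0.0415), and the call was kept only when the library left out was PLL replicate A, PLL replicate B or DZ replicate C (adjusted p up to 0.181 without another). It was lost too with RLE factors, library totals, the predicted loci included, a minimum count of 30 and the replicate block (edgeR adjusted p of 0.0535 to 0.135). The 3 erythroid markers, of which it is one, summed to 47925 to 81658 CPM in aFM and 61346 to 137122 CPM in DZ. The median log2 fold change of the tested list members in aFM against DZ was 0.13, beside -0.14 over all tested miRNAs.

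Of 6 miRNAs known to hold back myogenesis all had a count and 4 were tested. mmu-miR-222-3p, which targets the cell cycle inhibitor gene Cdkn1b, was higher in aFM, at 3940 ± 1005 CPM, than in DZ, at 1693 ± 744 CPM (SD, n = 3 each), with a log2 fold change of 1.20 ± 0.37 (edgeR adjusted p = 0.0425). That call was kept only without PLL replicate A, PLL replicate C or DZ replicate C, with adjusted p up to 0.208 without another library. It was lost too with RLE or upper quartile factors, library totals, the predicted loci included, no filter, a minimum count of 30 and identical entries merged (edgeR adjusted p of 0.0513 to 0.551). Its cluster neighbour mmu-miR-221-3p was higher in PLL, at 4106 ± 543 CPM, than in aFM, at 1869 ± 228 CPM, with a log2 fold change of 1.14 ± 0.25 (edgeR adjusted p = 0.0141, up to 0.134 when an aFM library, PLL replicate B or PLL replicate C was left out, 0.212 with no filter and 0.0657 with only the 2 groups). mmu-miR-23a-3p, known for acting on muscle atrophy and myosin genes, was higher in PLL too, at 2905 ± 2120.5 CPM against 610.3 ± 139 CPM in aFM, with a log2 fold change of 2.26 ± 0.49 (edgeR adjusted p = 0.0141). PLL replicate A had 5321 CPM of it, and leaving that library out gave a log2 fold change of 1.41 (edgeR adjusted p = 0.0363). Without aFM replicate B or C the adjusted p was up to 0.0889. The list's median log2 fold change was 0.86 in PLL against aFM, beside 0.31 over all tested miRNAs, and -0.23 in aFM against DZ, beside -0.14. In the 3 comparisons with NY, the group in which mmu-miR-206-3p was high, neither edgeR nor DESeq2 called any tested member of the 2 lists. Of all tested miRNAs edgeR called 0.758% in NY against DZ, 3.79% in NY against aFM and 6.82% in PLL against NY. At such shares the absence of calls in such short lists says little. At an unadjusted p under 0.05 in edgeR, 0 and 1 members of the promoting and the restraining list passed in NY against DZ, and 1 of each in NY against aFM and in PLL against NY. In PLL against DZ edgeR called none, with 2 and 3 members at an unadjusted p under 0.05, while DESeq2 called mmu-miR-486a-5p and mmu-miR-23a-3p. The other members with one of the 2 smallest p-values of their list in some comparison were mmu-miR-24-3p, mmu-miR-26a-5p, mmu-miR-27b-3p and mmu-miR-125b-5p, none of which passed.

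The tested miRNAs whose profile over the 12 libraries was nearest to a member's were found by the root mean square difference of mean-centred log2 CPM. For mmu-miR-206-3p these were mmu-miR-1198-5p (1.26), mmu-miR-378c (1.37) and mmu-let-7d-3p (1.41), beside a median of 1.81 over all tested miRNAs and an SD of its own profile of 1.75, so no miRNA followed it closely. For mmu-miR-378a-3p these were mmu-miR-10a-5p (0.49), mmu-miR-128-3p (0.57) and mmu-miR-151-3p (0.59), beside a median of 0.97. mmu-miR-10a-5p averaged 2728 ± 397 CPM in PLL, 2356 ± 563 CPM in NY, 4205 ± 52.5 CPM in aFM and 2316 ± 797 CPM in DZ (SD, n = 3 each). For mmu-miR-378c these were mmu-miR-222-3p (0.65), mmu-miR-24-2-5p (0.77) and mmu-miR-342-5p (0.80), beside a median of 1.26. All these miRNAs share the 12 libraries and their depth, and the values are a description.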

How the data were processed

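The authors deposited whole-number counts per row and library without normalization, as the values show. FastQC, STAR, StringTie, DESeq2 and the build mm39 are named in the submitters' processing notes. How miRNAs were called, how reads that fit several entries were counted and which miRBase release was used is not given in the sources used here. The labels' protocols speak of mRNA libraries in the extraction text, but the design text names a small RNA kit. Of 3509 rows, 1531 were predicted loci with 39.3% to 89.7% of a library's counts. These rows carry no gene name, and neither library sizes nor tests include them. All 12 columns were matched to samples by their names.

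R 4.3.3 with edgeR 4.0.16 and limma 3.58.1 was used. The default filterByExpr rule, a minimum count of 10 and a minimum total of 15, kept 132 miRNAs with 98.0% to 98.7% of annotated counts. One quasi-likelihood fit over all 12 libraries, scaled with TMM factors, had group as its sole term. The 6 pairwise and the joint tests were two-sided, and p-values were adjusted after Benjamini and Hochberg over the 132, with a threshold of 0.05. The SE of a log2 fold change is its size over the square root of F, and the common biological coefficient of variation was 40.4%. Scripts were tested on simulated data. In a chi-square test no pair of replicates agreed within sampling noise. PLL replicate A stood apart, with a chi-square per degree of freedom of 99.2 against replicate B and 87.3 against replicate C. The other pairs had 6.27 to 29.1. That library had mmu-miR-140-3p at 99795 CPM, against 5400 and 5122 CPM in PLL replicates B and C. Its stromal marker sum, 235141 CPM, was the highest of PLL.

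The members and lists were chosen with earlier results of these data known. All 6 members are named whatever their values, and list members where they passed the threshold or had one of the 2 smallest p-values of their list in a comparison. Whether replicate letters pair libraries was checked by correlating how libraries of one letter depart from their group means. Between NY and DZ alone did each letter exceed 0.1 (0.146 to 0.333), which comes from the data, since no label states a pairing. Alternatives were other scalings, other filters, DESeq2 1.42.0, entries summed or merged, only the libraries compared, a replicate block and each library left out.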

Additional observations from a re-analysis of the deposited data

How the results depend on the processing

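The count of members called in aFM against DZ was 2. It was 0 with upper quartile factors, library totals, all rows (predicted loci included), no filter on low counts, a minimum count of 30, and the replicate block, where letters did not pair those groups (correlations of 0.0341 to 0.200). It was 1 with the miR-378 entries summed, with identical rows merged, and with only the 2 groups compared. Leaving out 1 library gave 0 to 2. In NY against DZ the count of 0 became 1 with no filter and with DESeq2 (0 to 1 with a library left out, 1 without DZ replicate C), and the replicate block left it at 0. In PLL against DZ it became 2 with all rows (0 to 0). In NY against aFM it became 1 with all rows, no filter, DESeq2 and only the 2 groups (0 to 1). In PLL against aFM it became 1 with all rows (0 to 0). In PLL against NY the 1 call became 0 with all rows (0 to 1). The joint count of 1 became 2 with DESeq2 and with the miR-378 entries summed (0 to 1, and 0 without aFM replicate A or B or any NY library). Calls gained with no filter are not firmer than the main ones, since p-values of that fit treat the spread between libraries as known.

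Log2 fold changes turned sign 16 times, all of values that passed no threshold. For mmu-miR-206-3p, aFM against DZ was 0.0022 with library totals, 0.0070 with DESeq2 and 0.15 with the replicate block (-0.87 to 2.97 with a library left out, 0.14 without aFM replicate A), and PLL against DZ was 0.55 with all rows (-1.30 to 2.20). NY against aFM was 0.40 with all rows for mmu-miR-378a-3p (-0.55 to 0.045) and 0.15 for mmu-miR-378c (-0.66 to 0.033). With all rows, PLL against aFM was 1.17 for mmu-miR-206-3p, 0.79 for mmu-miR-378a-3p and 1.05 for mmu-miR-378c, and PLL against NY 0.38 and 0.90 for mmu-miR-378a-3p and mmu-miR-378c. In that fit the library totals hold the predicted loci as well. The median log2 fold change of the 132 miRNAs was then -0.53 in aFM against DZ and 0.24 in NY against DZ. It was 1.66 in PLL against DZ, 0.78 in NY against aFM, 2.13 in PLL against aFM and 1.48 in PLL against NY. The cause of the sign changes was not tested. Over all miRNAs, the 12 higher and 13 lower calls in aFM against DZ became 12 higher and 4 lower with RLE factors, 8 higher and 15 lower with upper quartile factors, and 7 higher and 1 lower with library totals. At this depth mmu-miR-133a-3p and mmu-miR-378d, with 11 and 31 counts, were tested only with no filter on low counts.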

Other observations

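Of 7 miRNAs known from brown fat and adipocytes, where miR-378a is also known to act, all had a count, 3 were tested and none was called by edgeR or DESeq2 in any of the 6 comparisons, with 1 edgeR p under 0.05 before adjustment. It was that of mmu-miR-196a-5p in PLL against DZ, a miRNA that promotes brown fat formation in mouse white fat. It averaged 827 ± 232 CPM in PLL and 1374 ± 166 CPM in DZ (SD, n = 3 each), with a log2 fold change of -0.74 ± 0.33 (edgeR adjusted p = 0.170). mmu-miR-455-5p, from the locus whose other arm takes part in brown fat formation, reached 1879.5 CPM in 1 PLL library and 25.1 CPM in another, and averaged 752 ± 990.3 CPM in PLL and 119.7 ± 135 CPM in NY (SD, n = 3 each; log2 fold change 2.63 ± 1.26, edgeR adjusted p = 0.261). mmu-miR-182-5p, the other tested entry, did not pass in any comparison. mmu-miR-193b-3p and mmu-miR-365-3p, a cluster tied to brown fat differentiation, had 5 and 6 counts in PLL, 1 and 6 in NY, 0 and 0 in aFM and 2 and 2 in DZ, and were not tested. The list's median log2 fold change ran from -0.74 in PLL against DZ to 0.33 in PLL against aFM, beside 0.22 and 0.31 over all tested miRNAs. With 3 tested, the absence of calls says little, since edgeR called 0.758% to 18.9% of all tested miRNAs in a comparison.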
